A study of Canis lupus familiaris with 34 samples.

Results

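DNA damage checkpoint and repair genes were followed across cell lines and tumours of canine osteosarcoma, a bone cancer that is common in large dogs. The genes were a list of 34 symbols, looked up by the symbol of each probe set in the annotation of the Affymetrix Canine_2 array. A probe set was found for 32 of them. PALB2 and BLM had none under their symbol in that annotation. Of the 32, 24 passed the filter on low signal (log2 intensity over 5 on at least 3 of 34 arrays) and were among the 7849 genes tested. The other 8 were ATM, BRCA1, CLSPN, FANCA, FANCC, MRE11, WRN and XRCC2.

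The arrays came from 31 dogs and fell into 3 groups: cell lines derived from primary tumours (25 arrays), cell lines derived from metastases (3 arrays) and snap-frozen primary tumour tissue (6 arrays). The labels name no genotype and no agent given to the cells; their treatment field was read as the care of the dog. Of the primary lines counted 1 to a dog, 10 came from Rottweilers, 7 from Golden Retrievers, 2 from German Shepherds, 1 each from an Alaskan Malamute, Great Pyrenees, Mastiff and Saint Bernard, and 1 from a dog of unknown breed. The metastatic lines came from 2 Rottweilers and 1 Rhodesian Ridgeback, and the tissues from 3 Golden Retrievers and 1 each of Great Pyrenees, Borzoi and Belgian tervuren. Sex was unbalanced, with 5 of 6 tissues from females against 10 of 24 primary lines (13 male, 1 with no label) and 1 of 3 metastatic lines. The treatment label was SOC alone for 11 primary lines, 1 metastatic line and 3 tissues, and was another value or absent for the rest. The dog labelled OSCA 71 was counted here by the label of primary line 19, which primary line 22 and tissue 5 of that dog do not share. Ages at diagnosis, in a unit the labels leave out, ranged from 2.0 to 11.19 (primary lines), 2.39 to 6.31 (metastatic lines) and 2.67 to 11.91 (tissues). The labels describe the cultured material as primary tumour cells or cryopreserved cultured cells and give no passage number. Each line otherwise stands for a single dog, except that the dog labelled OSCA 71 gave 2 line arrays (primary lines 19 and 22), which were averaged under the name primary line 19 and left 24 primary lines. Array titles begin with 1 of 3 prefixes, treated here as possible batches. Prefix 3 held all 6 tissues and only 2 line arrays, those of primary lines 22 and 23; prefix 1 held 4 primary lines and prefix 2 the remaining 19 primary lines and all 3 metastatic lines.

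Cells answer DNA damage in layers. The kinases ATM and ATR sense breaks and stalled forks and pass the signal to CHEK2 and CHEK1, while WEE1 holds back the mitotic cyclin-dependent kinase. Homologous recombination copies the lost stretch from the sister chromatid in S and G2 phase: the MRE11-RAD50-NBN complex processes the break ends, BRCA1-BARD1 and BRCA2 prepare strand exchange, and the Fanconi proteins handle crosslinks at the fork. Mismatch repair corrects replication errors. End joining, led by the Ku proteins XRCC5 and XRCC6 and closed by XRCC4 with LIG4, rejoins ends throughout the cell cycle. Many genes of the S and G2 phase pathways are transcribed with the cell cycle. In osteosarcoma these pathways are studied because genome rearrangement is a hallmark of the tumour.

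All values are log2 of GCRMA intensity, and every difference is a log2 difference. Levels of different genes were read with different probes and are not compared. The median linear intensity of an array ranged between 8.08 and 8.51 for primary lines, between 8.08 and 8.37 for metastatic lines and between 8.28 and 8.67 for tissues. The 3′ minus 5′ difference of the actin control probe sets, which rises as RNA degrades, was 1.42 ± 0.96 (SD, n = 24) in primary lines and 2.59 ± 1.15 (SD, n = 6) in tissues. In metastatic lines it ran from 0.63 to 3.95. The GAPDH controls did not separate primary lines from tissues, at 2.46 to 4.17 and 2.96 to 3.46, and ran from 3.12 to 5.92 in metastatic lines. All 10 monocyte and macrophage markers and all 5 tested endothelial markers had lower means in primary lines than in tissues, CD163 for example at 2.26 ± 0.19 against 8.79 ± 1.59. The summed macrophage signal (log2 of the summed intensities) was 5.58 to 9.49 in primary lines and 12.14 to 14.29 in tissues, and the endothelial sum 5.49 to 14.97 and 10.56 to 14.72. The highest endothelial sum of a primary line thus lay above that of every tissue. None of the 8 T and NK cell markers passed the filter, and CD3E, CD8A and CD4 were near background on all arrays. The summed signal of the T and NK cell markers was 5.30 to 5.71 in primary lines and 5.72 to 9.95 in tissues. COL1A1, the collagen chain of bone matrix, was high in both (13.66 ± 0.49 and 13.84 ± 0.28), and RUNX2, the osteoblast regulator, was at 4.24 ± 0.83 and 4.59 ± 0.46. All 7 tested osteoblast and mesenchymal markers had lower means in primary lines. For 3 of them the adjusted p was under 0.05 (limma) and the change at least 2-fold: ALPL (-6.69), SPP1 (-7.38) and IBSP (-8.38). Tissues are mixtures of cells, so for each gene below fewer cells of a type and less RNA per cell cannot be told apart.

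BRCA2 and CHEK2 were lower in primary lines than in tissues, and NBN was the only tested member with an adjusted p under 0.05 that was higher. In the fit of all 7849 genes (limma, Benjamini-Hochberg), 4 of 24 members were lower in lines at an adjusted p under 0.05 (BRCA2, CHEK2, PARP1 and ATR) and 1 was higher (NBN). The share over all genes was 12.8% lower and 9.84% higher. With a change of at least 2-fold also required, only BRCA2 and CHEK2 remained among the members, both lower, and no member was higher, against 9.06% of all genes lower and 5.57% higher. Over the 24 members 14 differences were negative, and their median was -0.32, beside 53.3% negative and a median of -0.05 over all genes. Groups overlapped for each of the 24 members, and the share of all genes with such overlap is not given here. In title prefix 3, the only prefix with both groups, the 2 lines had higher means than the 6 tissues for BRCA2 and CHEK2, with values given below. In females alone (10 lines, 5 tissues) neither passed, at -2.30 (adjusted p = 0.055, limma) for BRCA2 and -1.50 (adjusted p = 0.063) for CHEK2.

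**Figure D1:**
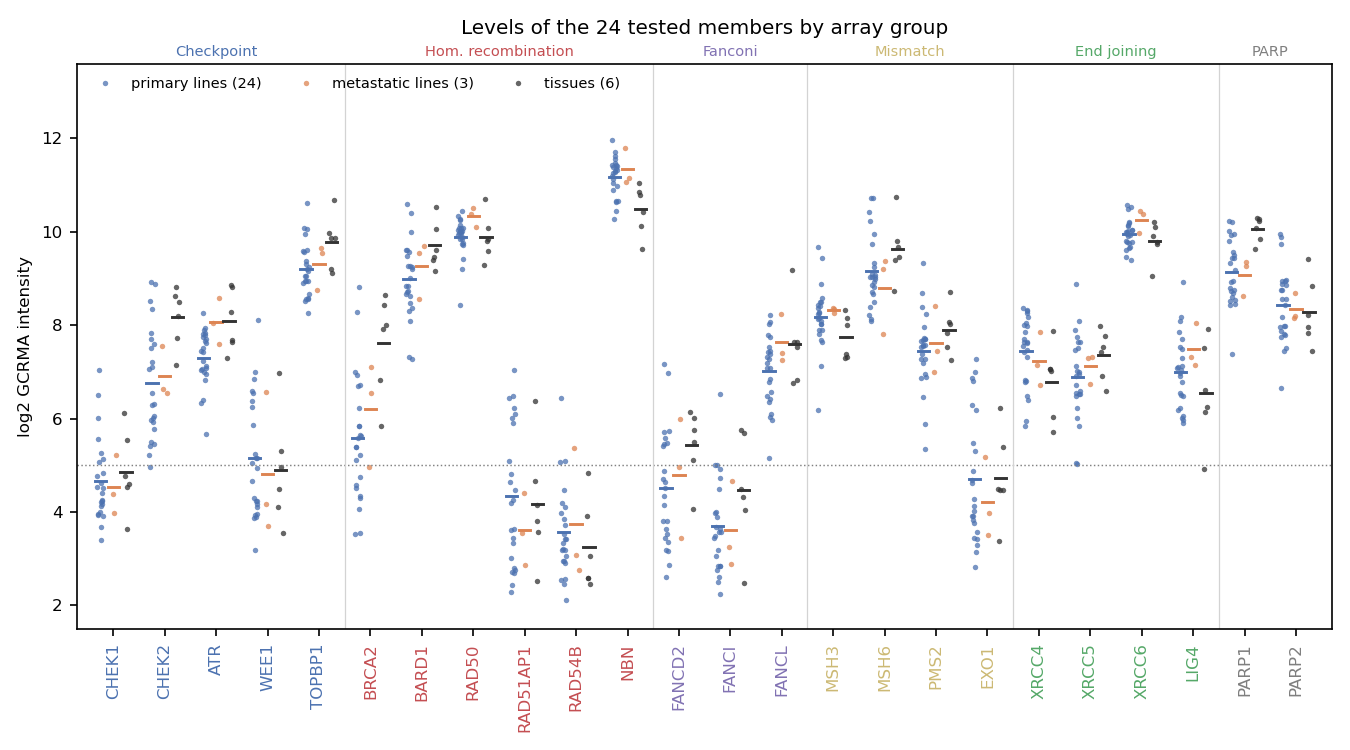
Log2 GCRMA intensity (vertical axis) of the 24 tested members, with gene names coloured by pathway class; points are arrays, short bars are group means, and the dotted line is the filter at log2 5. BRCA2, CHEK2, ATR and PARP1 sit lower in primary lines than in tissues and NBN higher, while every gene shows overlap between both groups.

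The checkpoint kinases did not move as a block. CHEK2, the kinase that ATM activates at double-strand breaks, was 7.72, 7.15, 8.62, 8.20, 8.83 and 8.50 in tissues 1 to 6. In primary lines it ran from 4.97 over a median of 6.43 to 8.91. Of 24 lines, 15 lay below every tissue and 2 above every tissue. The difference was -1.41 (SE 0.48, adjusted p = 0.032, limma), a 2.67-fold lower level. Leaving out any of tissues 3, 4, 5 or 6 took the adjusted p over 0.05 (0.057 to 0.084), and a second, dimmer CHEK2 probe set gave 0.16 (adjusted p = 0.853, limma), although both probe sets correlated across lines at r = 0.86.

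ATR, the kinase of stalled replication forks, was 8.28, 7.69, 8.83, 7.30, 7.64 and 8.86 in tissues 1 to 6 and ran from 5.68 over 7.43 to 8.26 in primary lines. Of 24 lines, 11 were under the lowest tissue and 0 above the highest. The difference was -0.79 (SE 0.27, adjusted p = 0.034, limma), under 2-fold, and its adjusted p was 0.071, 0.120 and 0.122 without tissue 1, 3 or 6. CHEK1, the effector of ATR, differed by -0.19 and WEE1 by 0.26, and neither passed the test; 21 of 24 lines lay within the tissue range for each. TOPBP1, the scaffold that activates ATR, was 9.20 ± 0.58 in lines and 9.79 ± 0.57 in tissues, a difference of -0.59 (adjusted p = 0.104, limma). Other, dimmer TOPBP1 probe sets gave -0.66 (adjusted p = 0.325, limma) and 0.51 (adjusted p = 0.419), so its direction depends on the probe set. ATM and CLSPN, the adaptor of CHEK1 activation, did not exceed log2 5 on any array. In a fit without the filter, ATM differed by 0.45 between means of 2.94 and 2.49 (adjusted p = 0.052, limma), and these levels lie close to background.

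Homologous recombination members went in both directions, with a median difference of 0.09 over the 6 tested. BRCA2, a central mediator of strand exchange, was 7.91, 5.83, 7.99, 8.43, 6.84 and 8.65 in tissues 1 to 6. In primary lines it ran from 3.54 over 5.49 to 8.82. Primary line 19 alone was above all tissues, 15 lines were below all of them, and tissue 2 lay about a log2 unit under the next tissue. The difference was -2.03 (SE 0.57, adjusted p = 0.0095, limma), a 4.08-fold lower level, and the second probe set gave -1.48 (adjusted p = 0.018). BARD1, the partner of BRCA1, was 8.98 ± 0.81 in lines and 9.71 ± 0.50 in tissues; its difference of -0.73 did not pass the test (adjusted p = 0.120, limma), but that of its second probe set, -1.11, did (adjusted p = 0.026).

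NBN, the subunit of the MRE11 complex that recruits ATM, went the other way. It was 10.42, 11.05, 10.86, 9.63, 10.13 and 10.78 in tissues 1 to 6 and ran from 10.27 over 11.29 to 11.96 in primary lines. Of 24 lines, 16 were above every tissue and 0 below. The difference was 0.70 (SE 0.20, adjusted p = 0.012, limma), 1.63-fold; without tissue 4, the lowest, it was 0.53 (adjusted p = 0.068). The second NBN probe set gave 0.52 (adjusted p = 0.045). RAD50, the coiled-coil subunit of the same complex, differed by 0.01 on the probe set that stood for the gene. A second RAD50 probe set gave 0.99 (adjusted p = 0.065), and the pair correlated at only r = -0.10 across lines, so the RAD50 result depends on the probe set. MRE11 itself was not over log2 5 on any array.

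RAD51AP1, which stimulates strand invasion, and RAD54B, a motor protein of the same step, differed by 0.17 and 0.33 with wide intervals (95% intervals -1.12 to 1.46 and -0.58 to 1.24). BRCA1, WRN (a helicase) and XRCC2 (a recombination factor) were below the filter, with line means of 2.55, 3.05 and 3.06. WRN was over log2 5 in 1 array alone, primary line 3 at 5.10. For these genes a low value says only that the probe set gave little signal.

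All 3 tested Fanconi members had lower means in lines, and none passed the test. FANCD2, the protein that is ubiquitinated at crosslinks, was 4.51 ± 1.24 in lines and 5.43 ± 0.77 in tissues (-0.92, SE 0.52, adjusted p = 0.207, limma). FANCI, its partner, differed by -0.77 (adjusted p = 0.242), and FANCL, the ubiquitin ligase that modifies both, by -0.58 (adjusted p = 0.229). FANCD2 spanned 2.61 to 7.17 in lines, so 10 lines fell below every tissue and 2 above every tissue. The 95% interval of its difference, -1.98 to 0.14, includes both no change and a change of well over 2-fold. FANCA and FANCC, of the core complex, were below the filter, with line means of 2.65 and 2.41.

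Mismatch repair and end joining members gave no adjusted p under 0.05. MSH6 and MSH3, which act in mismatch recognition, differed in opposite directions (-0.47 and 0.43). PMS2, the endonuclease subunit, differed by -0.45, and EXO1, the exonuclease that removes the mismatched strand, by -0.03. Their second probe sets gave -0.62 (PMS2, adjusted p = 0.235, limma) and -0.63 (EXO1, adjusted p = 0.550). In end joining, the Ku subunits differed by -0.48 (XRCC5) and 0.16 (XRCC6), LIG4 by 0.44 and XRCC4 by 0.66 (adjusted p = 0.159, limma). Other XRCC6 probe sets gave 0.98 (adjusted p = 0.219, limma), 0.04 and -0.03. XRCC4 had no line below the lowest tissue and 8 above the highest. The medians of the class differences were -0.59 for the 5 checkpoint members, 0.09 for the 6 of homologous recombination, -0.77 for the 3 Fanconi members, -0.24 for the 4 of mismatch repair and 0.30 for the 4 of end joining. With 3 to 6 members a class these medians describe the listed genes and were not tested against each other.

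PARP1, the enzyme that marks strand breaks with poly(ADP-ribose), was 9.85, 9.62, 10.28, 10.30, 10.08 and 10.23 in tissues 1 to 6. It ran from 7.39 over 9.06 to 10.22 in primary lines, and 18 of 24 lines lay below every tissue, the most of any tested member. The difference was -0.92 (SE 0.28, adjusted p = 0.018, limma), 1.89-fold, and the second, dimmer PARP1 probe set gave -0.98 (adjusted p = 0.148). PARP2, its smaller relative, differed by 0.14 on the brighter probe set and by -1.10 (adjusted p = 0.041) on the other, so its direction depends on the probe set.

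**Figure D2:**
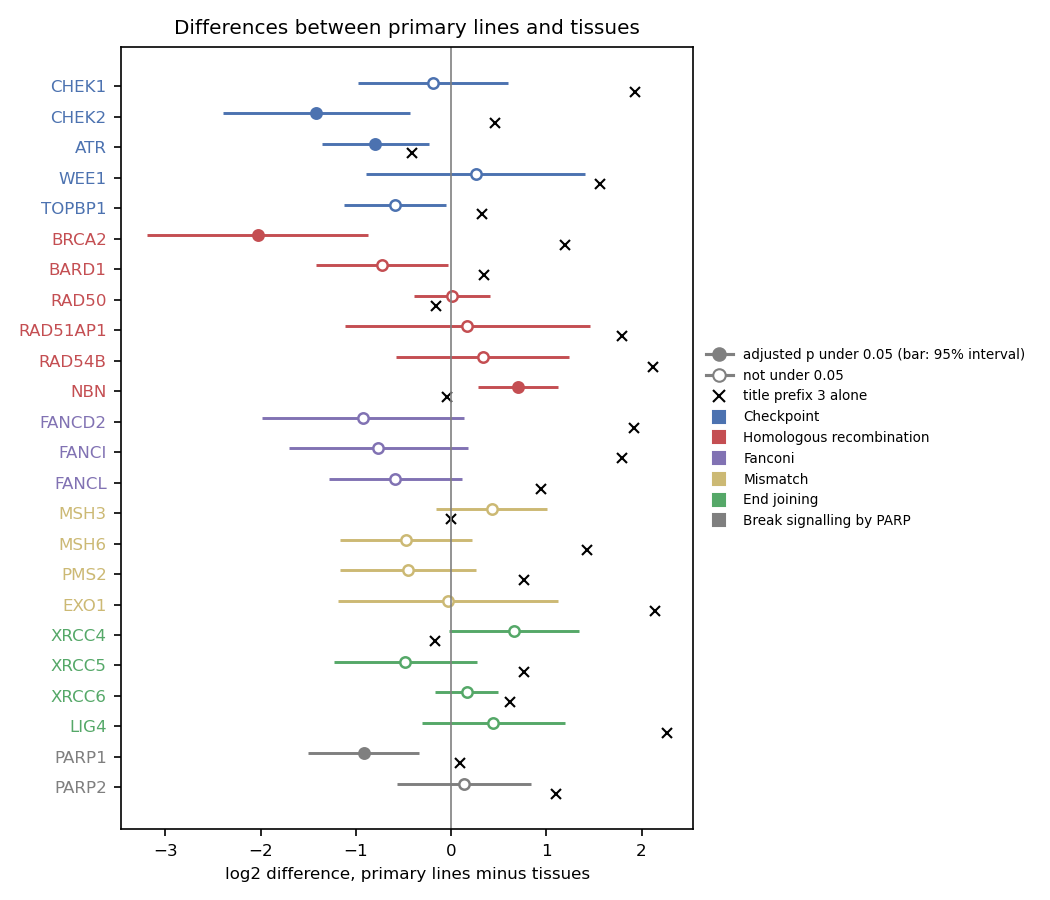
Log2 difference, primary lines minus tissues (horizontal axis), of each tested member with its 95% interval from the fit; filled points have an adjusted p under 0.05, and crosses give the difference between the 2 lines and 6 tissues of title prefix 3 alone. BRCA2, CHEK2, ATR and PARP1 lie left of 0 and NBN right of it, while 20 of 24 crosses lie right of 0.

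The direction of most members depended on which lines were set against the tissues. Within title prefix 3, where 2 lines and 6 tissues can be compared, 20 of 24 members were higher in lines, with a median difference of 0.86; over all genes 54.6% were higher and the median was 0.10. BRCA2 was then 1.20 higher, CHEK2 0.47 higher, FANCD2 1.92 higher and PARP1 0.09 higher in lines, and NBN differed by -0.04. ATR was -0.41 there. None of these had an adjusted p under 0.05 (the lowest over the members was 0.112, limma). Primary line 23 and the mean of primary lines 19 and 22 were among the lines with most proliferation gene signal, as given below. Without the line arrays of prefix 3, BRCA2 differed by -2.17 (adjusted p = 0.0023), CHEK2 by -1.50 (adjusted p = 0.016), PARP1 by -0.96 (adjusted p = 0.011), ATR by -0.82 (adjusted p = 0.029) and NBN by 0.73 (adjusted p = 0.0073). The remaining lines share no prefix with a tissue, so in them prefix and group cannot be told apart.

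Members differed in how far they spread among the primary lines. Their median SD over 24 lines was 0.81, against 0.67 over all genes, and 7 of 24 lay above the 75th percentile of all genes, a share near that of all genes, while 3 were under the 25th. RAD51AP1 varied most, from 2.28 to 7.04 (SD 1.50), followed by EXO1 (2.83 to 7.29, SD 1.37), BRCA2 (SD 1.35), WEE1 (SD 1.27), FANCD2 (SD 1.24) and CHEK2 (SD 1.20). XRCC6 varied least (9.40 to 10.58, SD 0.31), with RAD50 and NBN next (both SD 0.41). These SDs hold for the probe sets that stood for the genes, and RAD50 and XRCC6 have other probe sets of larger spread. Primary line 19 held the highest value of 7 members, primary line 23 that of 6 and primary line 25 that of 4. Primary lines 18 and 24 each held the lowest value of 4.

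The members that spread most followed the proliferation genes. Of 26 listed proliferation genes, none of them a member, 23 were measured, and their standardised mean was 0 ± 0.93 in primary lines by construction. It ran from -1.45 in primary line 16 to 1.49 in primary line 19, with primary line 23 at 1.40 and primary line 25 at 1.11. In tissues it was 0.61 ± 0.67 (SD, n = 6), from -0.56 in tissue 2 to 1.53 in tissue 6. Across 24 lines, Pearson's r with this mean was over 0.5 for 14 of 24 members and for 21% of the other genes; the median was 0.67 for members and 0.10 for all genes. These correlations are a description of lines that share an array type, a normalization and, within a prefix, possibly a batch.

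FANCD2 had the highest correlation (r = 0.95, Spearman's rho = 0.96), followed by CHEK2 (0.92), RAD51AP1 (0.90), EXO1 (0.88), FANCI (0.83), PARP2 (0.81), BRCA2 (0.77), TOPBP1 (0.76) and CHEK1 (0.75). For FANCD2, r was 0.95 without the 2 lines farthest from the median (primary lines 16 and 19) and 0.96 over the 19 lines of title prefix 2. BARD1, RAD54B and WEE1 followed at 0.70 each, then MSH6 at 0.65 and XRCC6 at 0.63. RAD54B was at 0.81 without the 2 farthest lines, and BARD1 was 0.82 within prefix 2.

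The remaining 10 members followed it less or not at all. XRCC5 was at 0.46 and PMS2 at 0.42; PMS2 was at 0.64 within prefix 2. XRCC4, LIG4, PARP1 and FANCL lay between 0.29 and 0.30. ATR was at 0.01 and MSH3 at -0.13. RAD50 and NBN, both of the MRE11 complex, had negative values (r = -0.36 and -0.46). The RAD50 value holds only for the probe set that stood for the gene, with which its second probe set correlated at r = -0.10 across lines. The NBN value was -0.35 without the 2 farthest lines and -0.53 within prefix 2. These 10 members had a median SD of 0.72 and the 14 with r over 0.5 a median SD of 0.99. XRCC6 (SD 0.31) and TOPBP1 (SD 0.58) belonged to the 14 with an SD under the median of all genes.

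**Figure D3:**
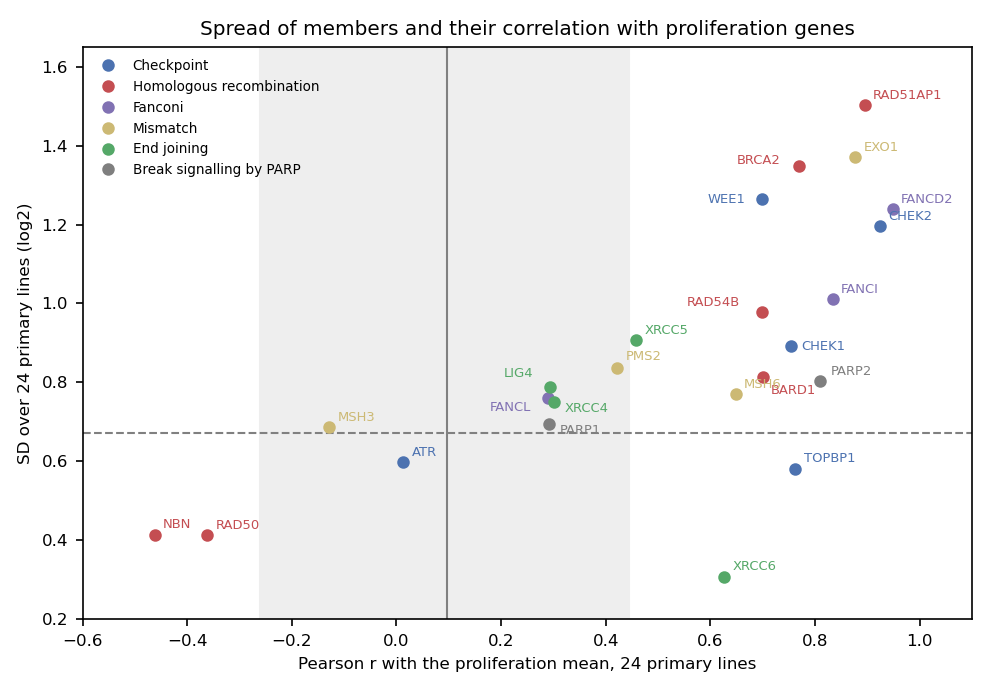
Pearson r of each tested member with the proliferation mean over 24 primary lines (horizontal axis) against its SD over the same lines (vertical axis, log2 units), coloured by pathway class. The grey band spans the quartiles of all other genes (-0.26 to 0.44), the solid line is their median r and the dashed line their median SD; FANCD2, CHEK2, RAD51AP1 and EXO1 lie at the upper right, and NBN and RAD50 at the lower left.

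Pathway classes did not sort cleanly by this measure. The median r was 0.83 for the 3 Fanconi members, 0.75 for the 5 checkpoint members, 0.70 for the 6 of homologous recombination, 0.54 for the 4 of mismatch repair and 0.38 for the 4 of end joining. Homologous recombination held the widest range, from -0.46 (NBN) to 0.90 (RAD51AP1), and the median correlation between its own 15 pairs of members was -0.21. Checkpoint pairs had a median of 0.65 and Fanconi pairs 0.47, against 0.21 for mismatch repair and 0.11 for end joining. Fanconi and checkpoint members correlated with each other at a median of 0.61 over 15 pairs, above the Fanconi members among themselves. Over all 276 pairs the median was 0.34.

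Single pairs ranged from strongly positive to clearly negative. FANCD2 and EXO1 correlated at 0.88, CHEK2 and FANCD2 at 0.87, FANCD2 and FANCI at 0.85 and BRCA2 and FANCD2 at 0.85. Of the 10 pairs with the highest r, 9 joined members of different classes, as did most of all 276 pairs. Pairs within a class numbered 10 (checkpoint), 15 (homologous recombination), 3 (Fanconi), 6 (mismatch repair), 6 (end joining) and 1 (PARP). The count of 9 is near that share and is no result about the classes. At the other end stood BRCA2 and NBN at -0.68 (-0.71 within prefix 2) and NBN and MSH6 at -0.63. Primary lines 5 and 9, the most similar pair of lines over all genes tested (r = 0.98), differed by a median of 0.21 over the members and by 1.63 at most. The median r between primary lines was 0.89, and both line arrays of OSCA 71 correlated at 0.92. Lines 5 and 9 were thus closer than these arrays of the same dog. The labels give them to different dogs, a female and a male, and they were counted as such. Whether they share an origin was not tested.

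**Figure D4:**
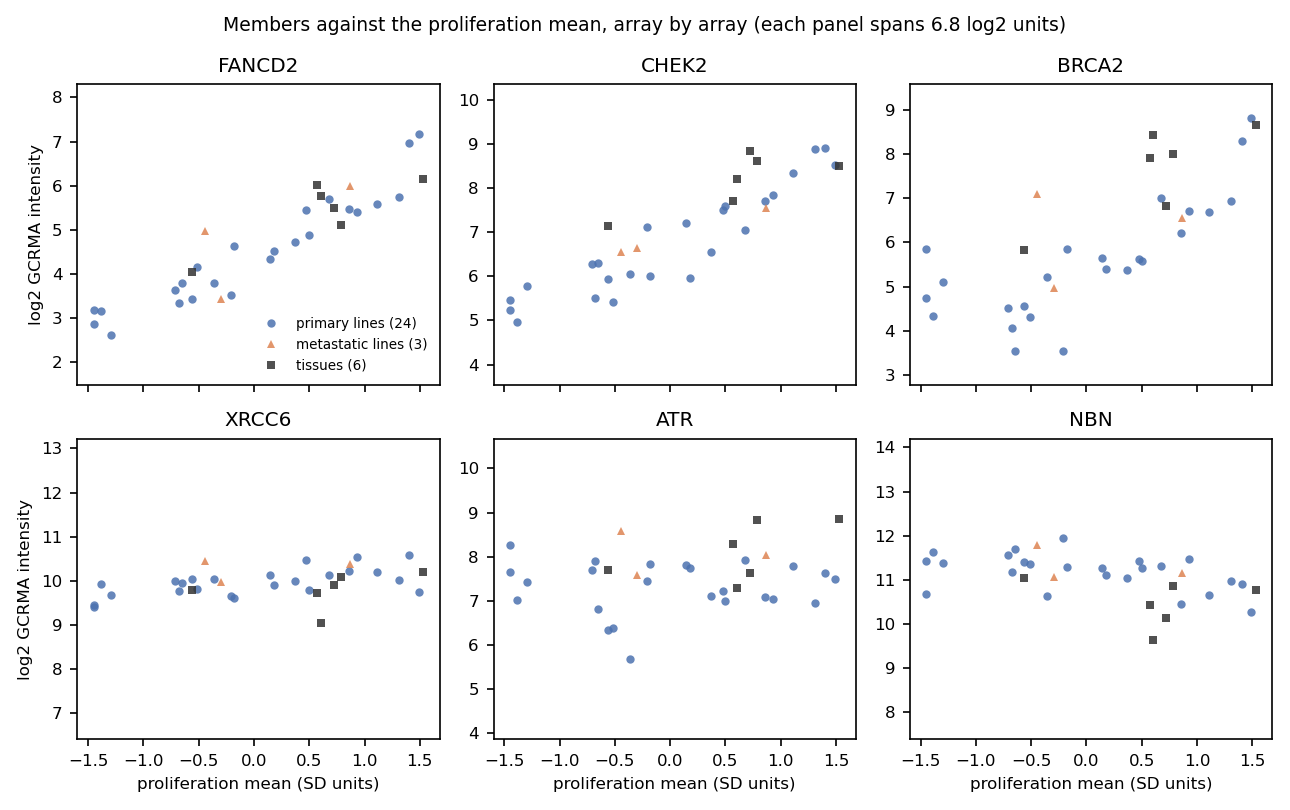
Log2 GCRMA intensity of 6 members (vertical axes) against the proliferation mean in SD units (horizontal axis), array by array; circles are primary lines, triangles metastatic lines and squares tissues. FANCD2 and CHEK2 rise along the axis in lines, ATR shows no slope, NBN falls slightly, and in the BRCA2 panel tissues 1, 3 and 4 (7.91 to 8.43) lie above every line other than primary lines 19 and 23.

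The tissues had higher proliferation gene signal than the average line, and its part in the member differences was examined only by adding it to the fit. Of 23 measured proliferation genes 22 were lower in lines, with a median of -1.34, and 1 passed the test with at least a 2-fold change. TOP2A was 9.19 ± 2.52 in lines and 11.36 ± 1.16 in tissues, and PCNA 11.70 ± 0.98 and 12.49 ± 0.67. With the proliferation mean as a covariate, a term added after the data were seen, FANCD2 differed by -0.18 and FANCI by -0.17. BRCA2 differed by -1.37 (adjusted p = 0.013, limma). CHEK2 went from -1.41 to -0.73 (adjusted p = 0.015), which is under 2-fold, so its call was lost. PARP1 differed by -0.78 (adjusted p = 0.044) and NBN by 0.58 (adjusted p = 0.030). RAD51AP1 went from 0.17 to 1.05 (adjusted p = 0.013) and EXO1 from -0.03 to 0.75 (adjusted p = 0.057), both away from 0, and ATR differed by -0.76 (adjusted p = 0.052).

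Many members shared their extremes among the tissues. Tissue 6, with the highest proliferation mean, held the highest value of 16 of 24 members, and tissue 2, with the lowest, held the lowest value of 12. RAD51AP1 for instance was 6.38 in tissue 6, 2.52 in tissue 2 and 3.56 to 4.66 in the other tissues. NBN was an exception, highest in tissue 2 at 11.05. The shares of all genes with their extremes in these tissues are not given here. The counts are therefore not read as particular to the members, and the part of proliferation in them was not tested.

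A line and a tissue came from the same animal in 2 dogs, and most members differed in opposite directions in them. In the dog labelled OSCA 71 (mean of primary lines 19 and 22 against tissue 5), 20 of 24 members were higher in the line, with a median of 0.88. In OSCA 73 (primary line 20 against tissue 6) only 2 were higher, RAD50 and XRCC4, and the median was -1.76. BRCA2 was 6.84 in tissue 5 and 8.32 and 9.32 in the line arrays of the same dog, but 8.65 in tissue 6 and 5.85 in primary line 20. RAD51AP1 showed the widest contrast, 2.67 higher in the line of OSCA 71 and different by -3.94 in that of OSCA 73. CHEK2 was lower in the line in both dogs and on both line arrays of OSCA 71. ATR, TOPBP1 and XRCC6 were lower in OSCA 73 and, for the mean of both arrays, in OSCA 71, but on the prefix 3 array of OSCA 71 each was higher than in tissue 5 (7.76 against 7.64 for ATR). Proliferation means followed the same order: 1.49 and 0.72 for line and tissue of OSCA 71, -1.45 and 1.53 for OSCA 73. With 1 pair a dog there is no test. The 2 line arrays of OSCA 71 themselves differed by a median of 0.74 over the members, in absolute terms, and by 2.10 for FANCI, and 15 of 24 were higher on the prefix 3 array.

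**Figure D5:**
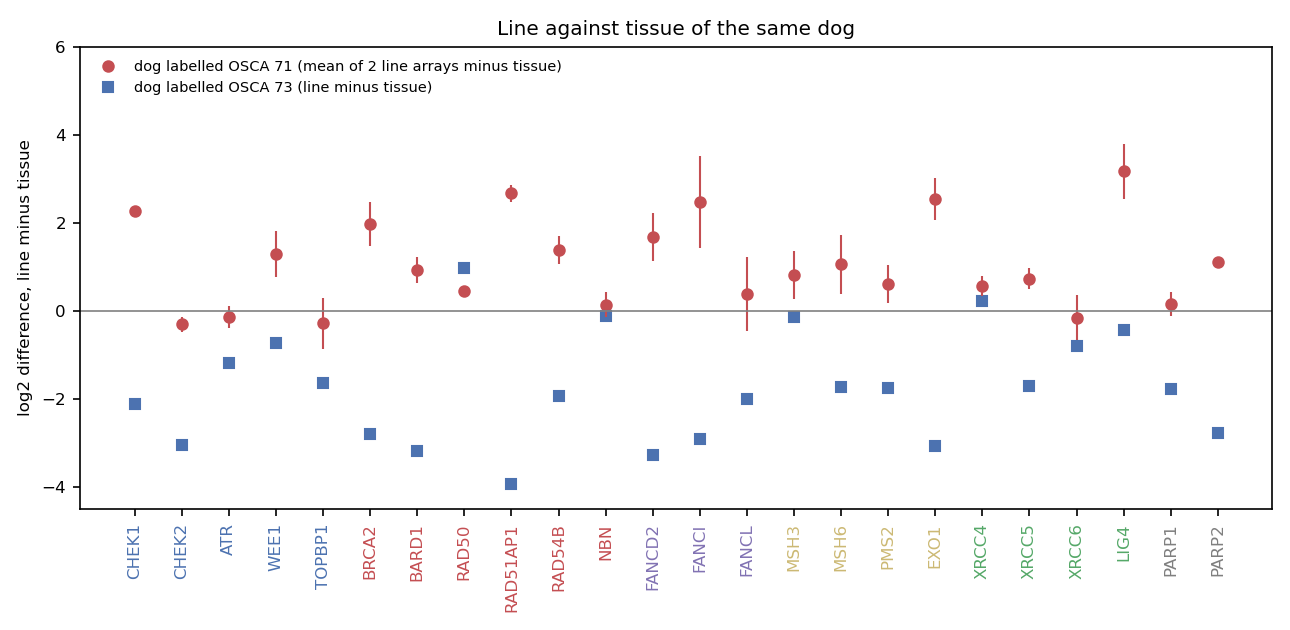
Log2 difference of line minus tissue of the same dog (vertical axis) for each tested member; circles are the dog labelled OSCA 71, with a bar joining the values of its 2 line arrays, and squares the dog labelled OSCA 73. In OSCA 71, 20 of 24 members lie above 0, in OSCA 73 only RAD50 and XRCC4 do.

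Metastatic lines were set against primary lines to ask whether repair genes differ with the origin of the line. No member passed the test (limma, adjusted p), and 1 of 7849 genes did, or 0.0127%; at an unadjusted p under 0.05 there was 1 member and 6.79% of all genes. That member was ATR, at 8.59, 7.59 and 8.05 in metastatic lines 1 to 3. All of these exceed the primary line median of 7.43 and the first exceeds the highest primary line, 8.26. The difference was 0.77 (SE 0.37, adjusted p = 0.702, limma). RAD50 was 10.51, 10.11 and 10.38 (0.43, adjusted p = 0.794) and XRCC6 10.44, 9.97 and 10.38 (0.30, adjusted p = 0.816), the members with the next smallest p; their other probe sets of larger spread gave -0.11 and -1.09. FANCL in metastatic line 1, at 8.23, and RAD50 there exceeded every primary line, and MSH6 in metastatic line 2, at 7.80, was under every primary line. Metastatic line 3 held the highest of the 3 values for 13 members and metastatic line 2 the lowest for 15; their proliferation means were 0.87 and -0.30, and that of metastatic line 1 was -0.45. The 95% interval of the BRCA2 difference, -0.93 to 2.18, shows how little 3 lines can limit.

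Survival was compared in the 11 primary lines of dogs whose treatment label is SOC alone (not spelt out in the labels), with survival from 4.04 to 64.01 in a unit that is likewise not given. The labels of OSCA 71 conflict: primary line 19 is labelled SOC alone, but primary line 22 and tissue 5 are not. The mean of primary lines 19 and 22 was used under the label of primary line 19. No member and no gene passed the test (0% of 7849; limma, adjusted p); at an unadjusted p under 0.05 there were 2 members and 384 genes, or 4.89%. Slopes per doubling of survival were negative for 21 of 24 members, against 51.5% of all genes, with a median of -0.13 against -0.01. RAD51AP1 was 6.02, 3.44, 7.04 and 4.64 in the 4 lines of shortest survival and 3.62, 2.72 and 2.69 in the 3 of longest. Primary line 19, next below these 3 with a survival of 16.0, went against this order at 6.24. The RAD51AP1 slope was -0.72 (SE 0.33, unadjusted p = 0.048, adjusted p = 0.906, limma). RAD54B had a slope of -0.40 (unadjusted p = 0.035, adjusted p = 0.906) and EXO1 of -0.61 (unadjusted p = 0.057, adjusted p = 0.906). All 14 members with r over 0.5 against the proliferation mean had negative slopes, and 7 of the other 10. The proliferation mean was 0.93, -0.65, 0.68 and 0.18 in the same 4 lines and -0.36, -1.29 and -0.71 in the same 3. In primary line 19 it was 1.49. The part of the proliferation mean in the slopes was not tested.

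Breed was compared between 10 Rottweiler and 7 Golden Retriever primary lines with sex as a covariate. No member passed the test, and 2 of 7849 genes did, or 0.0255% (limma, adjusted p); at an unadjusted p under 0.05 there were 3 members and 10.9% of all genes. Differences were positive, higher in Rottweiler lines, for 18 of 24 members and 57.8% of all genes, with medians of 0.42 and 0.07. CHEK2 ran from 5.96 over 7.55 to 8.87 in Rottweiler lines and from 5.23 over 5.77 to 8.52 in Golden Retriever lines (1.38, SE 0.48, adjusted p = 0.352). The ranges overlap over most of their length. XRCC4 ran from 7.42 over 7.92 to 8.32 and from 5.94 over 6.81 to 8.31 (0.91, SE 0.30, adjusted p = 0.335). XRCC6 differed by 0.39 (adjusted p = 0.428). The 14 members with r over 0.5 were all higher in Rottweiler lines and 4 of the other 10 were. The proliferation mean was 0.52 ± 0.58 (SD, n = 10) in Rottweiler and -0.47 ± 1.14 (SD, n = 7) in Golden Retriever lines, and its part in these differences was not tested.

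A wider list of 85 repair genes held 61 of the members' classes and 24 of excision and base repair, which has no member. Of 57 tested, 39 had lower and 18 higher means in primary lines than in tissues. At an adjusted p under 0.05, 7 were lower (12.3%, near the 12.8% of all genes) and 1 was higher (1.75%, against 9.84%); 5 of the lower and none of the higher were among the 40 tested genes of the members' classes. Past 2-fold as well, RAD52, which anneals single strands, was lower (-1.15, adjusted p = 0.013, limma), as were HELQ, a fork helicase (-1.05, adjusted p = 0.018), and the base excision glycosylases NTHL1 (-1.40, adjusted p = 0.00034) and MUTYH (-1.002, adjusted p = 0.030). DDB2, the ultraviolet damage sensor, was higher (1.01, adjusted p = 0.043). None of the 8 tested Fanconi genes on this wider list had an adjusted p under 0.05.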

How the data were processed

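Values were the deposited intensities of 34 Affymetrix Canine_2 arrays, which the authors computed with GCRMA, per the submitters' processing notes; no source used here gives its version or settings. They were on a linear scale, and log2 was taken after a floor at 1 that altered no value. Of 43035 probe sets, 175 controls were left out, and 18591 with log2 over 5 on at least 3 arrays were kept. The probe set with the highest mean stood for each gene, which gave 7849 genes. The gene identifiers of 29 of the 32 members with a probe set are in the RefSeq table supplied, and the annotation's symbols were kept for the other members. The annotation can be old.

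Differences were tested with limma 3.58.1 under R 4.3.3 (lmFit and eBayes). The p-values were adjusted over all genes by the Benjamini-Hochberg method and called at an adjusted p under 0.05; primary lines against tissues also needed a 2-fold change. The 3 groups shared 1 fit. Survival was fitted as log2 of its label, with every value taken as a full survival time. The number of arrays limits the precision.

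Members, lists, pathway classes and alternatives were chosen with earlier results of these data known. By the rule for named genes, all members could be named, with other pathway genes called in lines against tissues and a few fixed proliferation and cell type markers. ALPL, SPP1 and IBSP were named outside this rule, as the osteoblast markers called in lines against tissues. Members named under survival, breed and metastasis had the smallest p. Labels pair a line and a tissue in 2 dogs; their deviations from the group means correlated at 0.157 (OSCA 71) and -0.175 (OSCA 73). Per the labels each other line is from its own dog. Sequences of promoters, proteins and probes were not analysed here. Alternatives are given in the closing section.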

Additional observations from a re-analysis of the deposited data

Results flagged for a closer look

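FANCL in tissue 6 stood apart from the other tissues. It was 9.18 there and 7.64 in the next highest tissue, and this gap was 0.635 of the range of all 6 tissues, past Dixon's 95% critical value of 0.625. By this measure chance marks about 1 group in 20, and 24 members were examined in the tissues. Tissue 6 also held the highest value of 16 of the 24 members, and the share over all genes is not given here.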

How the results depend on the processing

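Past the threshold and 2-fold, in either direction, 2 members were called in primary lines against tissues (BRCA2 and CHEK2, both lower). The count was 4 when each gene's probe set of largest interquartile range was taken, 5 with no minimum change (4 lower, NBN higher), 1 with the title prefix as a covariate (LIG4, higher), 0 within title prefix 3, 0 in females alone and 1 to 3 when single tissues were left out (1 without tissue 3, 4, 5 or 6, since CHEK2 no longer passed, and 3 without tissue 2, since PARP1 then passed 2-fold). It was also 2 with no filter, a filter at log2 7, quantile normalization, both line arrays of OSCA 71 apart, without primary line 4 or 9 and without the line arrays of prefix 3. Primary line 4 was left out as endothelial-like, and primary line 9 as near-identical to primary line 5. With the proliferation mean as a covariate the 2 were BRCA2, lower, and RAD51AP1, higher, and CHEK2 was lost; these last alternatives, of prefix 3 line arrays and proliferation, were chosen after seeing the data. The fit with the dog as a random replicate block, for the pairing in 2 dogs, also gave 2 and changed no member's call. Over all genes, 1148 were called, against 493 with the prefix covariate, 251 within prefix 3 and 707 in females. In metastatic against primary lines, survival and breed the count was 0 under each alternative run. With the title prefix as covariate or prefix 3 alone, which rest on the same 2 lines and 6 tissues, 16 members changed sign: BARD1 to 0.35, BRCA2 to 1.20, CHEK1 to 1.94, CHEK2 to 0.47, EXO1 to 2.15, FANCD2 to 1.92, FANCI to 1.79, FANCL to 0.95, MSH6 to 1.43, NBN to -0.039, PARP1 to 0.093, PMS2 to 0.77, RAD50 to -0.16, TOPBP1 to 0.33, XRCC4 to -0.17 and XRCC5 to 0.77; LIG4 was 2.27 (adjusted p = 0.0053, limma; 0.0053 to 0.866 over its alternatives) with the covariate. Taking the probe set of largest interquartile range, PARP2 became -1.10, and in metastatic against primary lines RAD50 became -0.11 and XRCC6 -1.09. EXO1, near 0, became 0.12 with quantile normalization, 0.060 with both arrays apart, 0.086 with the block, 0.0032 without primary line 4 and 0.75 with the proliferation mean. RAD50 became -0.0072 with quantile normalization and -0.082 with the proliferation mean, which turned CHEK1 to 0.27. In females RAD54B became -0.0014 and WEE1 -0.038; BRCA2 was -2.30 there (adjusted p = 0.055) and CHEK2 -1.50 (adjusted p = 0.063), while ATR, PARP1 and NBN had adjusted p of 0.060, 0.057 and 0.097. ATR was also just over the threshold with quantile normalization (-0.75, adjusted p = 0.051). The cause of these changes was not tested, except that fewer samples entered the prefix and female fits. With single tissues left out, differences near 0 changed sign for 6 members, whose values spanned -0.435 to 0.059 (CHEK1), -0.303 to 0.265 (EXO1), -0.032 to 0.365 (PARP2), -0.107 to 0.177 (RAD50), -0.160 to 0.612 (RAD51AP1) and -0.011 to 0.672 (WEE1).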
